A study of Mus musculus with 24 samples.

Results

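The data described here compared naive mouse embryonic stem cells (ESCs) that lack Eed with heterozygous ESCs, in 4 of the 24 RNA-seq libraries of the series. Eed encodes the subunit of Polycomb repressive complex 2 (PRC2) that binds methylated histone H3 and is needed for the activity of the complex. The 2 null libraries came from Eed-/- ESCs and the 2 heterozygous libraries from Eed fl/- ESCs, which carried 1 deleted allele and 1 allele with loxP sites on both sides of exon 7, and they were chosen by their columns in the deposited table for this pair of genotypes. Both genotypes were derived from blastocysts of crosses between Eed heterozygous females and heterozygous males that carried Protamine-Cre, a Cre recombinase driven by a promoter of the male germ line, on a 129/S1 background. Both were grown on mouse embryonic fibroblast feeders in 2i/LIF, that is, with the MEK inhibitor PD0325901, the GSK3 inhibitor CHIR99021 and leukemia inhibitory factor. The medium used for derivation also contained serum replacement and fetal bovine serum. The libraries of a genotype were biological duplicates by the study's account, and the sources used here did not say whether they came from separate lines. The p-values measured the spread between these libraries, and a difference between genotypes could not be told apart from a difference between lines. The comparison asked which genes were expressed at another level in naive ESCs without PRC2.

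PRC2 places methyl groups on lysine 27 of histone H3 through its catalytic subunits EZH1 and EZH2, together with EED and SUZ12. In ESCs the trimethylated mark, H3K27me3, covers the CpG-rich promoters of many developmental regulators, and PRC1 complexes with CBX subunits bind it. The genes that PRC2 is known to hold at low levels include the Hox clusters and the transcription factors that specify trophoblast, endoderm, mesoderm and neural lineages, while the mark also takes part in non-canonical imprinting.

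Total RNA depleted of ribosomal RNA was sequenced, and levels are given as FPKM, fragments scaled by gene length and by the fragments of the library. Differences are log2 fold changes of FPKM + 0.1, null minus heterozygous, with a standard error after ±, and a gene was called higher or lower at a Benjamini-Hochberg adjusted p under 0.05 in limma. The steps between low FPKM values placed the depth at an estimated 40500000 to 64200000 fragments over Ensembl genes, with the deepest library among the nulls. Within a genotype the 2 libraries had a Pearson r of 0.988 to 0.990 across genes on the log2 scale, and between genotypes r was 0.934 to 0.937, where genes are not independent replicates. In bulk RNA, fewer cells of a type and less RNA per cell cannot be told apart.

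Eed was at 11.4 and 11.6 FPKM in the heterozygous libraries and 2.72 and 2.78 FPKM in the null libraries (log2 fold change -2.03 ± 0.09, adjusted p = 0.000995). Its gene lies at chr7:89954654-89980983 (mm10). A value summed over a gene does not show the loss of 1 exon, and RNA of the remaining exons was still counted in the null libraries. The ESC marker Pou5f1 was at 96.9 and 106 FPKM in the heterozygous libraries and 76.4 and 91.8 FPKM in the null libraries, with an adjusted p of 0.176. The Y-linked genes Eif2s3y, Ddx3y, Kdm5d and Uty were present in all 4 libraries, and Xist, the RNA of X inactivation, was at 0.742 and 0.712 FPKM in the heterozygous libraries and 1.32 and 1.42 FPKM in the null libraries (log2 fold change 0.83 ± 0.15, adjusted p = 0.0135, a call lost without heterozygous library 1 or 2).

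Fibroblast feeder markers were measured because feeders can enter an ESC culture. Of 20 markers 12 were tested, 7 were higher and 4 lower in the null libraries, and the sum of the list was 35.2 and 39.8 FPKM in the heterozygous libraries against 18.6 and 21.5 FPKM in the null libraries. Without heterozygous library 1, heterozygous library 2 or null library 2, 4 of the markers were higher. Col1a1, a chain of type I collagen, was at 5.69 and 6.796 FPKM in the heterozygous libraries and 0.6504 and 0.681 FPKM in the null libraries (log2 fold change -3.04 ± 0.14, adjusted p = 0.00102). Acta2, smooth muscle actin, ran from 18.5 and 20.8 FPKM to 2.02 and 2.796 FPKM (log2 fold change -2.99 ± 0.18, adjusted p = 0.00136). Thy1 and Pdgfrb, surface proteins of fibroblasts and other mesenchyme, went the other way, Thy1 from 0.204 and 0.257 FPKM to 1.44 and 1.73 FPKM (log2 fold change 2.35) and Pdgfrb from 0.6802 and 0.594 FPKM to 3.89 and 4.36 FPKM (log2 fold change 2.52). The defining collagen gene Col3a1 was below 0.1 FPKM in all 4 libraries. The part of feeder cells in the results was not tested.

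Of 27015 Ensembl genes tested, 6534 (24.2%) were higher and 3266 (12.1%) were lower in the null libraries. Higher genes moved further: their median log2 fold change was 1.16, against -0.73 for lower genes. At a log2 fold change of at least 2, a 4-fold change, 1071 genes were higher (3.96%) and 151 were lower (0.559%). Higher genes made up 66.7% of the calls. When the libraries were scaled by median-of-ratios, which moved the median of all tested genes from 0.11 to 0.01, there were 6829 higher (25.3%) and 6076 lower (22.5%) calls, so that 52.9% of calls were higher. Of the genes called on the deposited scale, 6259 higher and 3260 lower genes were called in the same direction after scaling, and 0 were reversed. Without null library 2 there were 3783 higher calls, and without heterozygous library 1 or 2 there were 1543 and 1235 lower calls. With each library left out in turn, 2958 higher and 962 lower genes were called in all 4 runs.

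**Figure D1:**
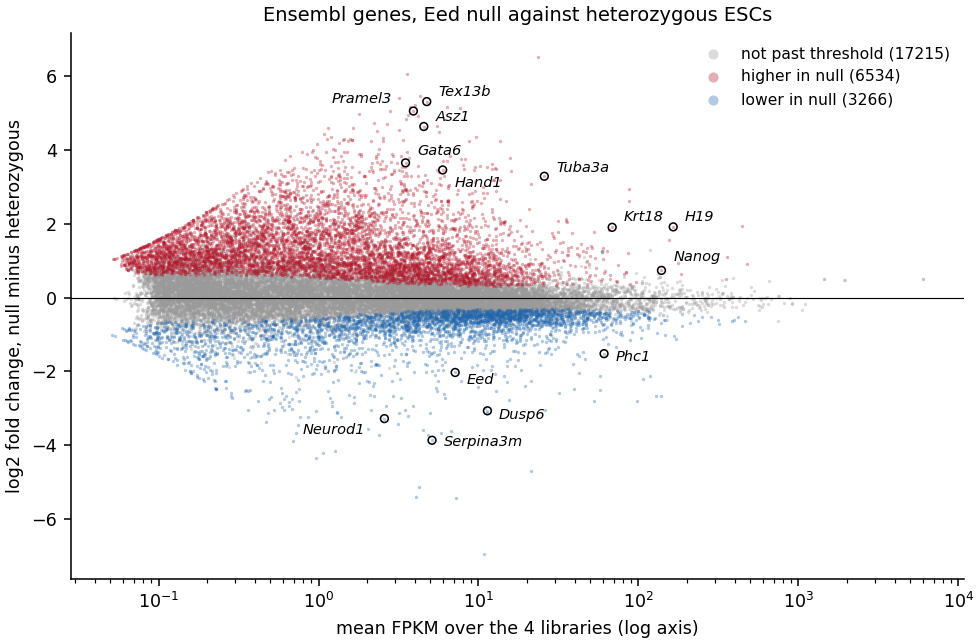
Each point is 1 tested gene, with its mean FPKM over the 4 libraries on a log x axis and its log2 fold change, null minus heterozygous, on the y axis. Colors mark the 6534 genes called higher, which reach further from 0, and the 3266 called lower.

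Most of the other core subunits of PRC2 did not pass the test. Suz12 was at 57.3 and 57 FPKM in the heterozygous libraries and 57.2 and 54.5 FPKM in the null libraries (adjusted p = 0.805). Ezh2, the main methyltransferase in ESCs, was at 19.3 and 19.5 FPKM in the heterozygous libraries and 18 and 19.3 FPKM in the null libraries (adjusted p = 0.677). Eed and the histone chaperone Rbbp4 were the 2 of 6 core genes called, both lower, Rbbp4 from 25.6 and 26.6 FPKM to 18.2 and 21.3 FPKM (log2 fold change -0.40, a call lost without heterozygous library 1 or 2 or null library 1).

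Among 9 tested accessory subunits, which steer PRC2 to chromatin, 3 were higher and 1 lower. AU022751, known as Ezhip, an inhibitor of EZH2 in germ cells, was at 3.05 and 3.65 FPKM in the heterozygous libraries and 10.1 and 12.7 FPKM in the null libraries (log2 fold change 1.73 ± 0.16, adjusted p = 0.00295). Phf19, a Polycomb-like protein that binds CpG-rich DNA, rose from 1.87 and 2.04 FPKM to 3.85 and 4.31 FPKM (log2 fold change 1.02), and Mtf2, its relative, rose from 26.8 and 26.8 FPKM to 35.2 and 33.2 FPKM (log2 fold change 0.35, a call lost without heterozygous library 1 or 2 or null library 1). Aebp2, of the other form of PRC2, fell from 9.21 and 9.63 FPKM to 5.23 and 5.98 FPKM (log2 fold change -0.74). Of the genes for enzymes that remove the mark, the X-linked Kdm6a (log2 fold change -0.85) and its Y-linked relative Uty (log2 fold change -1.05) were lower and Kdm6b was higher (log2 fold change 0.66, a call lost without heterozygous library 1).

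PRC1 genes split, with 8 of 25 higher and 8 lower. Phc1, a Polyhomeotic subunit, was among the highly expressed genes and fell from 88.4 and 92.5 FPKM to 30.7 and 32.3 FPKM (log2 fold change -1.52 ± 0.09, adjusted p = 0.00142). Scml2, an X-linked Polycomb protein of the germ line, rose from 2.76 and 2.58 FPKM to 17.8 and 15.98 FPKM (log2 fold change 2.61 ± 0.11, adjusted p = 0.000956). Of the CBX proteins, which read H3K27me3, Cbx7, the main one of ESCs, was lower, from 13.3 and 14.4 FPKM to 8.76 and 10.6 FPKM (log2 fold change -0.51, a call lost without heterozygous library 1 or 2 or null library 1), while Cbx8, more typical of differentiated cells, rose from 0.254 and 0.364 FPKM to 1.01 and 1.102 FPKM (log2 fold change 1.51). The RING finger partner Bmi1 was higher (log2 fold change 1.15) and Pcgf2 lower (log2 fold change -0.65, a call lost without heterozygous library 2). The count of lower PRC1 genes was 3 and 2 without heterozygous library 1 or 2, and 4 without null library 1.

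Of 10 genes for DNA methylation and demethylation enzymes 6 were lower and 1 higher. Dnmt3l, the cofactor of de novo methylation, was at 85.7 and 96.2 FPKM in the heterozygous libraries and 34.4 and 42.4 FPKM in the null libraries (log2 fold change -1.25 ± 0.14, adjusted p = 0.00454). Dnmt3b fell from 70.99 and 76.8 FPKM to 40.6 and 48.8 FPKM (log2 fold change -0.73, a call lost without heterozygous library 2), and Tet1, which oxidizes methylcytosine, fell from 73 and 76.5 FPKM to 51.3 and 50.4 FPKM (log2 fold change -0.55, a call lost without heterozygous library 1 or 2). Dnmt1, the maintenance enzyme, had an adjusted p of 0.678. Without heterozygous library 2 the count of lower genes in this list was 3.

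The lists of extraembryonic and germ layer genes had medians above that of all tested genes, 0.11, except the neural list, at 0.09. Weakly expressed protein-coding genes had higher medians too. These were 0.56 up to 0.3 FPKM, 0.54 at 0.3 to 1 FPKM and 0.29 at 1 to 3 FPKM. The list medians were not tested against them. Members with both heterozygous values under 0.1 FPKM were tested only through their null values and could not be lower. Among higher genes these were 4 of 21 in the primitive endoderm, 4 of 13 in the primitive streak and 4 of 10 in the neural list. They were 3 of 11 in the neural crest list and 4 of 8 in the definitive endoderm list. Some families of developmental transcription factors also had medians below that of all tested genes. These were the FOX (0.07), KLF and SP (0.08), proneural bHLH (-0.08) and ZIC (-0.30) factors.

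**Figure D2:**
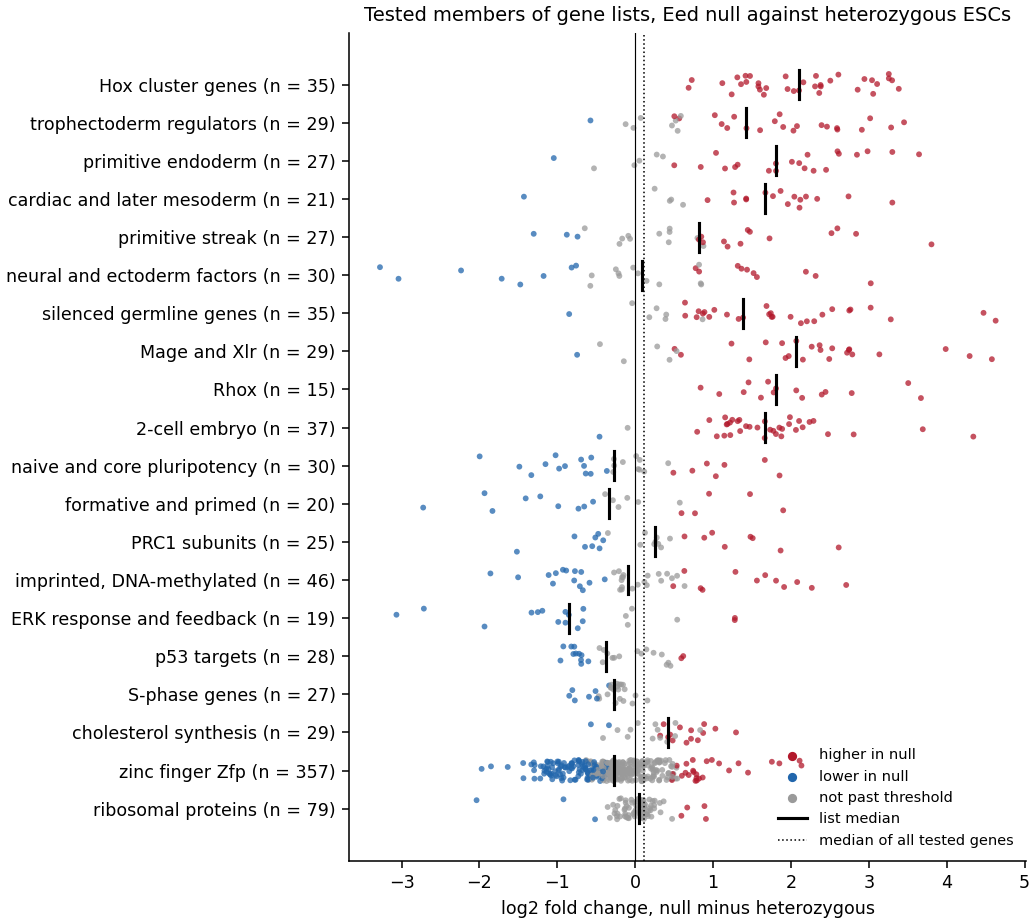
Each point is a tested member of a gene list, with its log2 fold change, null minus heterozygous, on the x axis, colored by its call, and bars mark the list medians beside a dotted line at the median of all tested genes. All 35 tested Hox genes lie to the right of 0, while the ERK genes have the lowest list median drawn, -0.85.

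All 35 tested Hox genes were higher, with a median log2 fold change of 2.1. Hox genes are homeobox factors that give position along the body axis and stand in 4 clusters. Of 39 Hox genes 4 (Hoxb1, Hoxb5, Hoxb6 and Hoxd3) were under the FPKM filter, and 24 of the 35 tested had both heterozygous values under 0.1 FPKM, so they were tested only through their null values and had to differ. With null library 1 or 2 left out, 11 were still tested, of which 11 and 9 were called.

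The levels reached were low, with 12 Hox genes at a mean of at least 1 FPKM in the null libraries. Hoxc10, a posterior gene of the C cluster, had the largest log2 fold change, at 0.00881 and 0.0572 FPKM in the heterozygous libraries and 1.16 and 1.38 FPKM in the null libraries (log2 fold change 3.38 ± 0.25, adjusted p = 0.00192, not tested without either null library). Hoxc4, at the anterior end of that cluster, was at 0.118 and 0.118 FPKM in the heterozygous libraries and 1.99 and 2.101 FPKM in the null libraries (log2 fold change 3.3 ± 0.16, adjusted p = 0.00104). Hoxc12, near its posterior end, rose from 0.269 and 0.179 FPKM to 2.703 and 3.26 FPKM (log2 fold change 3.26 ± 0.21, adjusted p = 0.00154). Hoxd9 of the D cluster was at 0.0906 and 0.05903 FPKM in the heterozygous libraries and 1.26 and 1.94 FPKM in the null libraries (log2 fold change 3.26 ± 0.26, adjusted p = 0.00226, not tested without either null library). In each of these genes both null libraries lay above both heterozygous libraries, which held for every gene called higher. Over all 27015 tested genes, 11292 were higher without overlap between the groups.

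**Figure D3:**
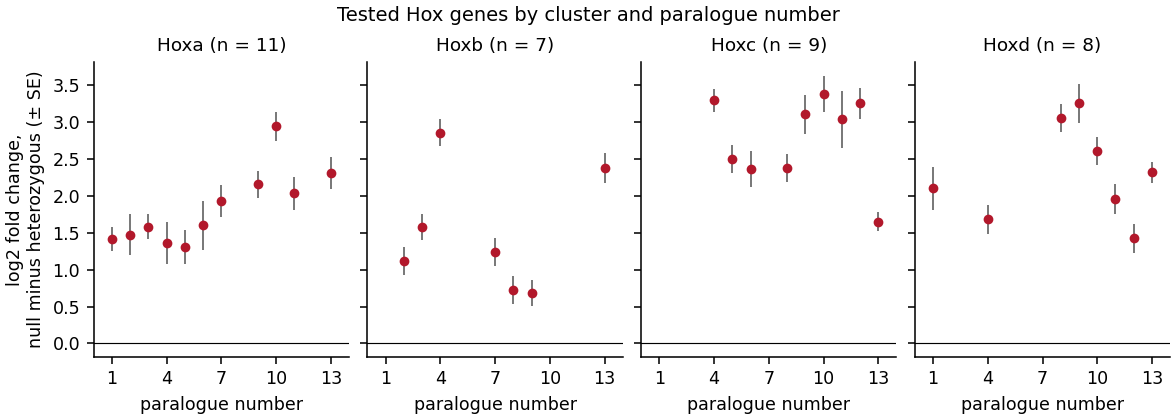
Points are the log2 fold changes, null minus heterozygous, of the tested Hox genes in the 4 clusters by paralogue number, with bars of 1 SE. All 35 lie above 0, with the highest point at Hoxc10 and the largest mean in the C cluster.

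Other families of developmental transcription factors differed in their counts. Over all tested genes 24.2% were higher and 12.1% lower. In the level classes of protein-coding genes up to 3 FPKM, 36.9% to 43.6% were higher and 6.18% to 9.97% lower. The higher counts of NKX, POU, proneural bHLH, ZIC, KLF and SP, FOX and SOX factors lay within or under that range for higher genes. The family counts were not tested against these shares. T-box factors were higher in 10 of 13 tested, GATA factors in 4 of 5, LHX and ISL factors in 7 of 9, and IRX factors in 4 of 5, with 0 lower in these 4 families, and 4 of 6 LHX and ISL factors were higher without either null library. NKX factors were higher in 3 of 8 with 0 lower, while 3 of 11 POU factors were higher and 3 lower, and so were 3 and 3 of 14 proneural bHLH factors. Of 4 ZIC factors 1 was higher and 1 lower, and of 25 KLF and SP factors 4 were higher and 6 lower. Tbx15, a mesenchymal T-box factor, rose from 0.146 and 0.186 FPKM to 2.29 and 2.74 FPKM (log2 fold change 3.3 ± 0.18, adjusted p = 0.00123). Lmx1a, a LIM homeobox factor of the dorsal midline and midbrain, rose from 0.233 and 0.272 FPKM to 2.23 and 2.25 FPKM (log2 fold change 2.73). The FOX family was mixed, with 13 of 35 higher and 6 lower, and so were the SOX factors, with 6 of 17 higher and 5 lower. Of the 13 higher FOX factors 6 had both heterozygous values under 0.1 FPKM and were tested only through their null values. Without null library 1 or 2 there were 6 higher FOX factors in each case, and without null library 2 there were 3 higher SOX factors. The lower FOX factors numbered 3 without heterozygous library 2 and 12 after median-of-ratios scaling.

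Trophectoderm is the outer layer of the blastocyst that gives rise to the placenta. Of 30 regulators and markers of trophectoderm and trophoblast stem cells, 29 were tested, 21 were higher and 1 was lower, and the median was 1.43. Cdx2, the caudal homeobox factor of trophectoderm, was at 0.662 and 0.575 FPKM in the heterozygous libraries and 5.802 and 8.19 FPKM in the null libraries (log2 fold change 3.29 ± 0.20, adjusted p = 0.00144). Eomes, a T-box factor of trophoblast stem cells, was at 0.798 and 0.871 FPKM in the heterozygous libraries and 5.27 and 5.83 FPKM in the null libraries (log2 fold change 2.6 ± 0.13, adjusted p = 0.00107). Hand1, a bHLH factor of trophoblast giant cells, was at 0.914 and 0.909 FPKM in the heterozygous libraries and 9.86 and 12.2 FPKM in the null libraries (log2 fold change 3.45 ± 0.14, adjusted p = 0.000956).

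The genes of this layer did not all start from 0. Gata3 rose from 3.05 and 3.18 FPKM to 8.61 and 10.9 FPKM (log2 fold change 1.6 ± 0.14, adjusted p = 0.00271), Gata2 from 2.67 and 3.21 FPKM to 9.31 and 12.7 FPKM (log2 fold change 1.85), and Tfap2a from 0.329 and 0.395 FPKM to 2.64 and 2.71 FPKM (log2 fold change 2.59), all transcription factors of early trophoblast. Tfap2c, another of them, did not pass, at 22.9 and 24.4 FPKM in the heterozygous libraries and 19.7 and 23.8 FPKM in the null libraries (adjusted p = 0.485). The ETS factor Elf5, a gatekeeper of the trophoblast stem cell state, was still low in the null libraries, at 0.0186 and 0.0415 FPKM in the heterozygous libraries and 0.515 and 0.729 FPKM in the null libraries (log2 fold change 2.46 ± 0.23, adjusted p = 0.00306, not tested without either null library). The epithelial keratins of the trophectoderm, Krt8 and Krt18, rose from 12.97 and 14.7 FPKM to 45.4 and 70.97 FPKM (log2 fold change 2.03) and from 26.5 and 30.7 FPKM to 89.2 and 128 FPKM (log2 fold change 1.9).

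**Figure D4:**
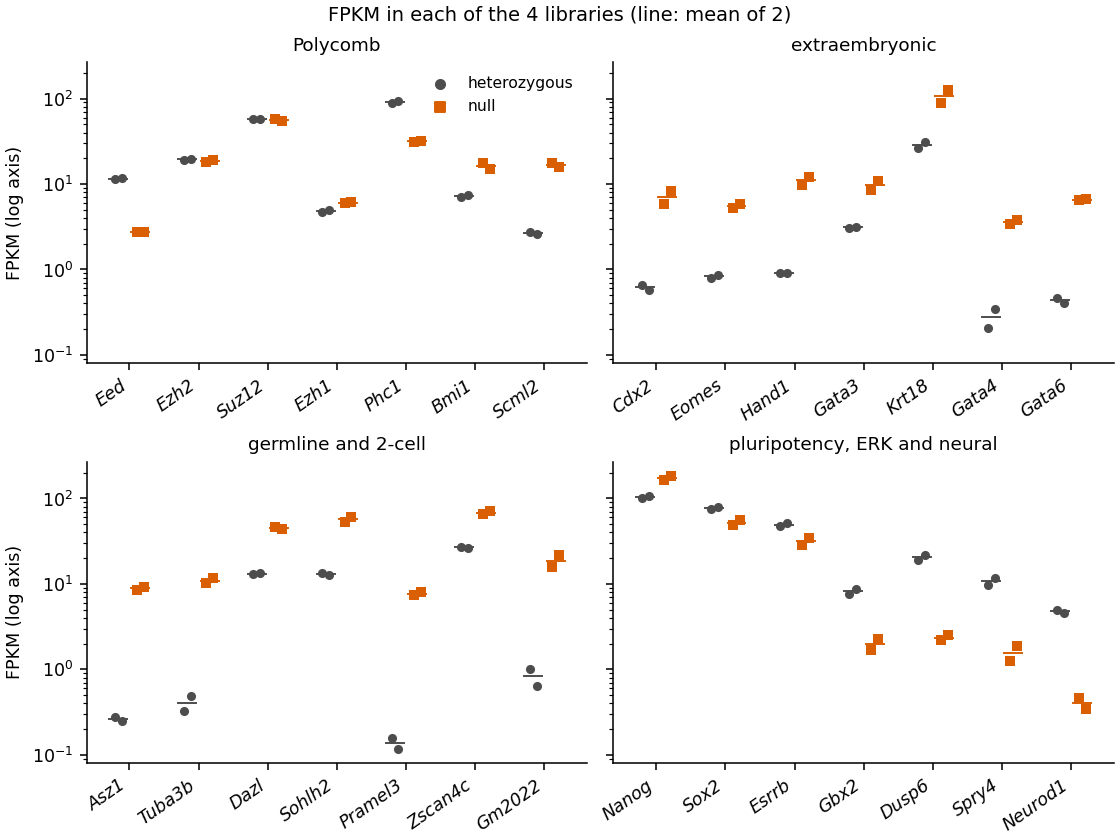
Points are FPKM in each of the 4 libraries on a log axis for genes of 4 groups, circles for heterozygous and squares for null, with a line at the mean of 2 libraries. Cdx2, Hand1, Gata6 and Asz1 were higher in both null libraries than in either heterozygous library, while Dusp6, Spry4 and Neurod1 were lower in both.

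Among 36 genes of the placenta and trophoblast derivatives, 23 were tested, 19 were higher and 2 lower. Of the 19, 5 had both heterozygous values under 0.1 FPKM and were tested only through their null values. Syna, the retroviral envelope gene syncytin A that fuses trophoblast cells, was at 0.387 and 0.432 FPKM in the heterozygous libraries and 5.53 and 5.46 FPKM in the null libraries (log2 fold change 3.46 ± 0.13, adjusted p = 0.000956). Prl3d1, a placental lactogen of trophoblast giant cells, was listed at 0 in both heterozygous libraries and at 0.743 and 0.580 FPKM in the null libraries. Tpbpa and Ctsq, markers of the spongiotrophoblast and of sinusoidal giant cells, were listed at 0 in all 4 libraries. The count of higher genes was 12 and 11 without null library 1 or 2, when 18 were tested.

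The primitive endoderm, the other extraembryonic lineage of the blastocyst, had 21 of 27 tested genes higher and 1 lower, with a median of 1.81. Gata6, its earliest factor, was at 0.465 and 0.403 FPKM in the heterozygous libraries and 6.51 and 6.62 FPKM in the null libraries (log2 fold change 3.64 ± 0.13, adjusted p = 0.000956). Gata4 rose from 0.209 and 0.347 FPKM to 3.37 and 3.76 FPKM (log2 fold change 3.3 ± 0.23, adjusted p = 0.00166), and Sox17 from 0.0705 and 0.0564 FPKM to 0.576 and 0.747 FPKM (log2 fold change 2.21, not tested without either null library). Pdgfra, a receptor on these cells, rose from 0.162 and 0.305 FPKM to 1.21 and 1.55 FPKM (log2 fold change 2.17). The basement membrane collagens Col4a1 and Col4a2, products of parietal endoderm, rose from 6.92 and 7.49 FPKM to 21.9 and 26.1 FPKM (log2 fold change 1.72) and from 4.04 and 4.47 FPKM to 12.9 and 17.7 FPKM (log2 fold change 1.81). Without null library 2, 13 genes of this list were called higher.

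The primitive streak is the place in the embryo where mesoderm and definitive endoderm arise. Of 27 tested genes of the primitive streak and early mesoderm, 13 were higher and 3 lower, with a median of 0.82, and 8 and 7 were higher without null library 1 or 2. Brachyury (T), the T-box factor of the streak, was at 0.305 and 0.305 FPKM in the heterozygous libraries and 0.419 and 0.484 FPKM in the null libraries (adjusted p = 0.11), and Mixl1 at 0.623 and 0.646 FPKM in the heterozygous libraries and 0.923 and 0.873 FPKM in the null libraries (adjusted p = 0.0815). The organizer factor Gsc was at 0.0663 and 0.0133 FPKM in the heterozygous libraries and 1.46 and 2.26 FPKM in the null libraries (log2 fold change 3.8 ± 0.31, adjusted p = 0.0023, not tested without either null library). Cdx1, a caudal factor of the posterior embryo, rose from 2.08 and 2.22 FPKM to 14.99 and 17 FPKM (log2 fold change 2.84 ± 0.11, adjusted p = 0.000956). The 4 libraries thus held a spread of responses within 1 list, from Brachyury, which did not pass, to Gsc.

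Cardiac and later mesoderm genes had 16 of 21 tested higher and 1 lower, with a median of 1.67. Of the 16, 6 had both heterozygous values under 0.1 FPKM and were tested only through their null values. Of 29 genes 8 were under the filter, and 4 reached a mean of 1 FPKM in the null libraries. Tbx20, a cardiac T-box factor, was at 0.576 and 0.614 FPKM in the heterozygous libraries and 4.25 and 4.85 FPKM in the null libraries (log2 fold change 2.74 ± 0.14, adjusted p = 0.00111). Nkx2-5, a homeobox factor of heart precursors, rose from 0.108 and 0.205 FPKM to 1.08 and 1.27 FPKM (log2 fold change 2.34 ± 0.25, adjusted p = 0.00396), and Runx1, of blood precursors, from 0.227 and 0.247 FPKM to 1.14 and 1.45 FPKM (log2 fold change 2.04). Without null library 1 or 2 the count was 10 and 8 of 15 tested. In the neural crest and surface ectoderm list 11 of 16 were higher and 2 lower, and 7 were higher without heterozygous library 2, 5 and 3 without null library 1 or 2. Krt14, a keratin of basal epidermis, was at 0.0693 and 0.0574 FPKM in the heterozygous libraries and 2.48 and 3.53 FPKM in the null libraries (log2 fold change 4.23 ± 0.22, adjusted p = 0.00118, not tested without either null library). Of 15 tested genes of definitive endoderm and gut, 8 were higher and 2 lower. Without null library 1 or 2, 3 and 2 of 10 were higher, and without heterozygous library 1 or 2, 0 were lower.

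Neural transcription factors divided, with 10 of 30 tested higher and 8 lower and a median of 0.09. Neurod1, a proneural bHLH factor, was expressed in heterozygous ESCs and fell, at 4.9 and 4.62 FPKM in the heterozygous libraries and 0.465 and 0.343 FPKM in the null libraries (log2 fold change -3.28 ± 0.17, adjusted p = 0.00118). Sox1, a factor of the neural plate, fell from 2.78 and 3.03 FPKM to 0.878 and 1.09 FPKM (log2 fold change -1.48 ± 0.16, adjusted p = 0.00393), and Olig2, of motor neuron and oligodendrocyte precursors, from 10.7 and 10.7 FPKM to 5.69 and 6.43 FPKM (log2 fold change -0.82). On the other side Otx1, a homeobox factor of the forebrain, rose from 0.113 and 0.0543 FPKM to 1.43 and 1.32 FPKM (log2 fold change 3.02 ± 0.22, adjusted p = 0.00193). Lhx2 (log2 fold change 2.32) and Irx3 (log2 fold change 2.19) also rose. Without null library 2 there were 5 higher genes, and without heterozygous library 2 there were 5 lower.

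The promoters of 3 of the called lineage genes are shown, because the promoters that H3K27me3 covers in ESCs are known to be rich in CG dinucleotides, with every CG in capitals. They are the 250 bases before the transcription start from RefSeq, GRCm38.p6, 5′ to 3′ on the strand of the gene.
Cdx2 (chr5:147307250-147307499, minus strand): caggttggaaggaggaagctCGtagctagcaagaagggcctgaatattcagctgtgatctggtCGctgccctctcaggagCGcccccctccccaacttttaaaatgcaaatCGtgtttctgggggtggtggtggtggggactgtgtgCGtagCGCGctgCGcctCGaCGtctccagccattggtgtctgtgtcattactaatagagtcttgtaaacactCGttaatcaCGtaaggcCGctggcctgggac
Hoxd9 (chr2:74697513-74697762, plus strand): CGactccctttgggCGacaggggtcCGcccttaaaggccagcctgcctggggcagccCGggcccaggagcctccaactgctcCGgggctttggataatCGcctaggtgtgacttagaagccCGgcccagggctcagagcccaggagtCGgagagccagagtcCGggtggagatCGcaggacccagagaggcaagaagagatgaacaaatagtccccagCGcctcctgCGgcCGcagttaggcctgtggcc
Krt14 (chr11:100206031-100206280, minus strand): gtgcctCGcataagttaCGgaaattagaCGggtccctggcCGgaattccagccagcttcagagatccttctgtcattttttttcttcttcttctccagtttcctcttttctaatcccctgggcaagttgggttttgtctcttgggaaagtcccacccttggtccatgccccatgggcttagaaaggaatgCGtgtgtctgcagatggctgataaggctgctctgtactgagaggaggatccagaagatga
The windows of Cdx2 and Hoxd9 each held 13 CG and that of Krt14 held 5. The ratio of observed to expected CG was 0.69 for Cdx2, 0.49 for Hoxd9 and 0.325 for Krt14. Over all promoter windows in the table, which also hold the 50 bases after the start, the median ratio was 0.388, so the window of Krt14 was not rich in CG by this measure. A genome-wide split of the called genes by promoter CG content was void, because 76.2% of tested protein-coding genes, under the 80% set as a minimum, had a promoter in the table of sequences.

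Germline genes are silenced in ESCs by DNA methylation, the PRC1.6 complex and related factors. Of 36 such genes 35 were tested, 28 were higher and 1 was lower, with a median of 1.38. Asz1, a protein of the piRNA pathway in germ cells, was at 0.274 and 0.2496 FPKM in the heterozygous libraries and 8.53 and 9.15 FPKM in the null libraries (log2 fold change 4.63 ± 0.13, adjusted p = 0.000956). Tuba3a and Tuba3b, testis tubulins that are nearly identical in sequence and may share fragments, were at 4.36 and 5.11 FPKM in the heterozygous libraries and 44.01 and 49.7 FPKM in the null libraries (log2 fold change 3.28 ± 0.12, adjusted p = 0.000956) and at 0.322 and 0.483 FPKM in the heterozygous libraries and 10.1 and 11.8 FPKM in the null libraries (log2 fold change 4.47 ± 0.20, adjusted p = 0.000956). Brdt, a testis bromodomain protein, was at 0.501 and 0.594 FPKM in the heterozygous libraries and 5.32 and 4.98 FPKM in the null libraries (log2 fold change 3.02 ± 0.14, adjusted p = 0.00103).

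Other germline genes were already expressed in heterozygous ESCs and rose further. Dazl, an RNA-binding protein of germ cells, rose from 13.2 and 13.3 FPKM to 46.02 and 43.5 FPKM (log2 fold change 1.75 ± 0.09, adjusted p = 0.00107). Sohlh2, a bHLH factor of gonocytes, rose from 13.3 and 12.8 FPKM to 53.5 and 61.3 FPKM (log2 fold change 2.13 ± 0.11, adjusted p = 0.00107). Smaller changes were those of Mael, of the piRNA pathway, from 8.68 and 9.37 FPKM to 22.2 and 25.3 FPKM (log2 fold change 1.38), and of Taf7l, an X-linked TFIID subunit of the testis, from 1.26 and 1.21 FPKM to 4.02 and 4.57 FPKM (log2 fold change 1.72). The meiotic gene Sycp3 rose from 2.27 and 2.64 FPKM to 4.07 and 4.55 FPKM (log2 fold change 0.79, a call lost without heterozygous library 1).

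The germline promoters are shown because many hold the E-box CACGTG, a site that MGA and MAX of PRC1.6 are known to bind. CACGTG, which reads the same on both strands, was in 14 of 33 windows of tested germline genes (42.4%) and in 12 of 26 windows of those called higher (46.2%). It was in 7.24% of all 27018 promoter windows of this length, 250 bases before to 50 after the start, and in 11.4% of the 9854 windows with an observed to expected CG ratio of at least 0.6. GCGGGA, part of an E2F site, searched on both strands, was in 16 of 33 germline windows (48.5%), in 20.02% of all windows and in 43.0% of the CG-rich ones. The 250 bases before the start follow for 3 of the genes, with CACGTG in capitals.
Brdt (chr5:107330944-107331193, plus strand): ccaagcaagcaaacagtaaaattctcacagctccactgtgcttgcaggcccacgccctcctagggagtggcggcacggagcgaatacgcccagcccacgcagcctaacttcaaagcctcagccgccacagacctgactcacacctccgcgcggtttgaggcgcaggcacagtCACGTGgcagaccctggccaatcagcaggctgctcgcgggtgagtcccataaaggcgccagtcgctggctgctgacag
Taf7l (chrX:134476491-134476740, minus strand): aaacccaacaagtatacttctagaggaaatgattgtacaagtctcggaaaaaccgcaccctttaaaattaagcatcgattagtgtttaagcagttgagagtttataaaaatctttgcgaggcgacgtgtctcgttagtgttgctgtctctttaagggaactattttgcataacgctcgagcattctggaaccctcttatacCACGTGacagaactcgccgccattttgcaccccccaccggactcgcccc
Mael (chr1:166238745-166238994, minus strand): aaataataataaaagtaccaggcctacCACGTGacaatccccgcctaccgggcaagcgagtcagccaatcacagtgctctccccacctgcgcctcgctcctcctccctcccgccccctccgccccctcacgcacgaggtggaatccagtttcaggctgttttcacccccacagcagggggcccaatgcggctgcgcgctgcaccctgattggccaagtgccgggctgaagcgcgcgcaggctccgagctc
In these 3 windows the E-box began 78, 49 and 223 bases before the start. A match of letters does not show that a factor bound there.

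The X chromosome holds clusters of genes expressed in germ cells and placenta. All 15 tested of 32 Rhox genes, homeobox genes of reproductive tissues, were higher, and 17 were under the filter. As with the Hox genes, 10 of the 15 had both heterozygous values under 0.1 FPKM, so they were tested only through their null values and had to differ. Rhox13 was at 0.246 and 0.246 FPKM in the heterozygous libraries and 3.45 and 5.37 FPKM in the null libraries (log2 fold change 3.67 ± 0.24, adjusted p = 0.00158). Rhox6, expressed in placenta, rose from 5.78 and 7.08 FPKM to 28.2 and 41.1 FPKM (log2 fold change 2.4 ± 0.21, adjusted p = 0.00274), and Rhox5, the highest of the family here, from 31.3 and 37.6 FPKM to 64.8 and 81.1 FPKM (log2 fold change 1.08). Without null library 1 or 2, 5 Rhox genes were tested and 5 were called in each case.

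Of 29 tested Mage and Xlr genes 23 were higher and 1 was lower, with a median of 2.07, and 12 and 10 of 19 were higher without null library 1 or 2. Of the 23, 10 had both heterozygous values under 0.1 FPKM, so they were tested only through their null values and had to differ. Magea5, a cancer-testis antigen gene, was at 0.0333 and 0.0639 FPKM in the heterozygous libraries and 2.32 and 3.37 FPKM in the null libraries (log2 fold change 4.29 ± 0.25, adjusted p = 0.00129, not tested without either null library), and Magea8 at 0 and 0.0791 FPKM in the heterozygous libraries and 2.303 and 4.16 FPKM in the null libraries (log2 fold change 4.58 ± 0.41, adjusted p = 0.00276, not tested without either null library). Xlr3c rose from 3.37 and 3.28 FPKM to 12.3 and 13.7 FPKM (log2 fold change 1.93). Of 11 tested Prame-like genes 10 were higher and 1 was lower, led by Pramel3 on the X chromosome, at 0.156 and 0.117 FPKM in the heterozygous libraries and 7.42 and 7.97 FPKM in the null libraries (log2 fold change 5.05 ± 0.16, adjusted p = 0.000956). Members of these families are close copies, and fragments that map to several were shared between them, so the values of single members are uncertain.

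The 2-cell list holds genes expressed at zygotic genome activation. Of 41 genes 37 were tested, 35 were higher and 1 was lower, with a median of 1.66. Zscan4f, which acts on telomeres and heterochromatin, was at 33.5 and 34.98 FPKM in the heterozygous libraries and 86.3 and 87 FPKM in the null libraries (log2 fold change 1.34 ± 0.09, adjusted p = 0.00165), and Zscan4c rose from 27.1 and 26.3 FPKM to 65.3 and 71.1 FPKM (log2 fold change 1.35). Both genes were already expressed in heterozygous cells. Tcstv3 rose from 0.659 and 0.789 FPKM to 4.799 and 6.63 FPKM (log2 fold change 2.8 ± 0.20, adjusted p = 0.00187), Zfp352 from 0.935 and 0.938 FPKM to 3.76 and 3.52 FPKM (log2 fold change 1.85), and Gm2022 from 1.02 and 0.636 FPKM to 15.6 and 21.5 FPKM (log2 fold change 4.34 ± 0.26, adjusted p = 0.00138). Usp17le, of a family of deubiquitinases with many copies, rose from 6.27 and 7.29 FPKM to 28.4 and 30.5 FPKM (log2 fold change 2.1). Duxf3, the Dux transcription factor that acts upstream of these genes, was low, at 0.301 and 0.3404 FPKM in the heterozygous libraries and 0.591 and 0.6699 FPKM in the null libraries (log2 fold change 0.80 ± 0.18, adjusted p = 0.0251, a call lost without heterozygous library 1 or 2 or null library 2). Copies within the Zscan4 and Usp17 clusters also shared fragments.

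Pluripotency genes were mixed, with 13 of 30 naive and core genes lower and 7 higher, and a median of -0.27. Over all tested genes 12.1% were lower and 24.2% higher. Among protein-coding genes above 30 FPKM 28.2% were lower and 6.76% higher, with a median of -0.20. The counts of this list were not tested against these shares. Lower genes included Gbx2, a homeobox factor of the naive state, at 7.64 and 8.78 FPKM in the heterozygous libraries and 1.699 and 2.29 FPKM in the null libraries (log2 fold change -2.0 ± 0.18, adjusted p = 0.00269). Nr0b1, a nuclear receptor that lacks a DNA-binding domain, fell from 24.8 and 27.2 FPKM to 8.98 and 9.44 FPKM (log2 fold change -1.49 ± 0.10, adjusted p = 0.00154). Utf1, a chromatin protein of ESCs that has been linked to the balance of PRC2, fell from 114 and 129 FPKM to 45.8 and 65.3 FPKM (log2 fold change -1.15). Zfp281 (log2 fold change -1.33) and Sall4 (log2 fold change -1.02) were lower too.

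Genes higher in the null libraries included other naive factors. Tfcp2l1 rose from 16.7 and 17.2 FPKM to 37.3 and 37.96 FPKM (log2 fold change 1.15 ± 0.09, adjusted p = 0.00193), Prdm14 from 6.24 and 6.95 FPKM to 12.5 and 14.8 FPKM (log2 fold change 1.03), and Dppa3, a maternal factor also known as Stella, from 3.55 and 3.596 FPKM to 11.1 and 15.7 FPKM (log2 fold change 1.85). Nanog rose from 102 and 107 FPKM to 164 and 185 FPKM (log2 fold change 0.73, a call lost without heterozygous library 1 or 2). Sox2 (log2 fold change -0.57, a call lost without heterozygous library 1 or 2) and Esrrb (log2 fold change -0.66, a call lost without heterozygous library 2) were lower, and Klf4 had an adjusted p of 0.841. The list had 7 lower genes without heterozygous library 2. Among 20 formative and primed genes 9 were lower and 5 higher, with 3 higher when either heterozygous library was left out. Foxp1, a forkhead factor, fell from 5.51 and 6.03 FPKM to 0.812 and 0.764 FPKM (log2 fold change -2.72 ± 0.13, adjusted p = 0.000995), and Otx2, the factor of the formative state, rose from 1.13 and 1.15 FPKM to 2.41 and 2.18 FPKM (log2 fold change 0.95).

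Of 19 tested genes that respond to ERK signaling or feed back on it 13 were lower and 2 higher, with a median of -0.85. Both genotypes were grown with a MEK inhibitor, which acts upstream of ERK. Dusp6, the phosphatase that dampens ERK, was at 19.3 and 21.5 FPKM in the heterozygous libraries and 2.18 and 2.51 FPKM in the null libraries (log2 fold change -3.07 ± 0.12, adjusted p = 0.000956). Spry4, a Sprouty inhibitor of receptor signaling, was at 9.73 and 11.7 FPKM in the heterozygous libraries and 1.25 and 1.89 FPKM in the null libraries (log2 fold change -2.71 ± 0.22, adjusted p = 0.00231). The ETS factors Etv4 and Etv5 fell from 19.2 and 21.7 FPKM to 7.79 and 9.301 FPKM (log2 fold change -1.25) and from 46.8 and 49.7 FPKM to 19.6 and 22.5 FPKM (log2 fold change -1.19). Myc fell from 18.3 and 20.6 FPKM to 8.81 and 10.8 FPKM (log2 fold change -0.99), and cyclin D1 (Ccnd1) from 17.1 and 18.9 FPKM to 9.01 and 10.3 FPKM (log2 fold change -0.90). The 2 higher members were Fos (log2 fold change 1.28) and Ier3 (log2 fold change 1.28).

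Targets of WNT and beta-catenin did not move as 1 group, with 5 of 17 higher and 6 lower. Wnt8a fell from 3.45 and 4.05 FPKM to 0.635 and 0.699 FPKM (log2 fold change -2.33 ± 0.15, adjusted p = 0.0015) and Sp5 from 1.86 and 1.95 FPKM to 0.583 and 0.554 FPKM (log2 fold change -1.58), whereas Axin2, the feedback inhibitor, had an adjusted p of 0.138. Of 17 tested antagonists of WNT, BMP and TGF-beta 9 were higher and 1 lower, and 5 were higher without null library 2. Of the 9, 3 had both heterozygous values under 0.1 FPKM, so they were tested only through their null values and could not be lower. Over all tested genes 24.2% were higher and 12.1% lower. Sfrp1, which binds WNT ligands, rose from 6.36 and 6.63 FPKM to 24.1 and 25.7 FPKM (log2 fold change 1.92 ± 0.09, adjusted p = 0.00104), and Lefty2, an inhibitor of Nodal, from 10.1 and 9.601 FPKM to 24.8 and 30.5 FPKM (log2 fold change 1.47). Bmp4 fell from 2.29 and 2.42 FPKM to 0.638 and 0.862 FPKM (log2 fold change -1.54 ± 0.18, adjusted p = 0.00491).

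Keratins and claudins are families of epithelial genes. Of 18 tested keratins 14 were higher, and of 16 claudins, the strands of tight junctions, 9 were higher, with 0 lower in either family. Of the higher genes, 7 keratins and 3 claudins had both heterozygous values under 0.1 FPKM. These were tested only through their null values and could not be lower. Of 50 keratins 32 were under the filter. Cldn3 rose from 0.212 and 0.303 FPKM to 2.14 and 3.84 FPKM (log2 fold change 3.07 ± 0.32, adjusted p = 0.00373), Cldn4 from 36.1 and 38.8 FPKM to 85.1 and 96.1 FPKM (log2 fold change 1.27), and Krt19 from 2.77 and 2.64 FPKM to 18.02 and 21.6 FPKM (log2 fold change 2.82 ± 0.12, adjusted p = 0.000956). Of the 18 keratins 9 were tested without null library 1 or 2, and 6 and 4 were called. Of the claudins 13 and 11 were then tested, and 5 were called in each case.

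CDK inhibitor genes had 4 of 7 higher and 0 lower. Cdkn2a, a known PRC2 target that encodes p16 and p19ARF, was at 3.72 and 3.97 FPKM in the heterozygous libraries and 7.28 and 9.89 FPKM in the null libraries (log2 fold change 1.12 ± 0.17, adjusted p = 0.00922). Cdkn1c, an imprinted inhibitor of growth, was at 8.97 and 8.62 FPKM in the heterozygous libraries and 27.3 and 29.05 FPKM in the null libraries (log2 fold change 1.67 ± 0.09, adjusted p = 0.00118). Cdkn2c rose from 0.321 and 0.265 FPKM to 0.828 and 1.003 FPKM (log2 fold change 1.37), and Cdkn2b from 0.9803 and 1.25 FPKM to 2.002 and 2.47 FPKM (log2 fold change 0.95, a call lost without heterozygous library 1 or null library 2). Cdkn1a, the p53 target p21, did not pass, at 14.5 and 15.4 FPKM in the heterozygous libraries and 10.3 and 12.4 FPKM in the null libraries (adjusted p = 0.0608).

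Of 28 p53 targets 11 were lower and 2 higher, and 7 were lower without heterozygous library 2. Mdm2, which degrades p53, fell from 46.8 and 47.7 FPKM to 25.3 and 23.3 FPKM (log2 fold change -0.96 ± 0.09, adjusted p = 0.00322), and Trp53inp1 from 62.7 and 64.7 FPKM to 35.2 and 31.9 FPKM (log2 fold change -0.92). Of 34 genes of G2 and mitosis 6 were lower and 2 higher, and of 27 S-phase genes 7 were lower and 0 higher. For comparison, 12.1% of all tested genes were lower. Among protein-coding genes of 10 to 30 FPKM 23.5% were lower and 14.1% higher, and above 30 FPKM 28.2% and 6.76%. The cell cycle counts were not tested against these shares. Ccne1, cyclin E1, fell from 76.5 and 82.3 FPKM to 41.2 and 47.1 FPKM (log2 fold change -0.85 ± 0.11, adjusted p = 0.0067), and Cdt1, a licensing factor, from 42.7 and 45.2 FPKM to 23.1 and 27.2 FPKM (log2 fold change -0.81), while Cdk1 had an adjusted p of 1. These cell cycle counts moved with the scale: after median-of-ratios scaling 17 G2 and mitosis genes and 24 S-phase genes were lower. Without heterozygous library 1 or 2 they fell to 2 and 1 for G2 and mitosis and to 3 in both cases for S phase, and 13 S-phase genes were lower without null library 2.

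Imprinted genes went both ways. Of 46 tested genes of domains under DNA methylation 12 were higher and 14 lower. Over all tested genes 24.2% were higher, near the share in this list, and 12.1% lower. Higher genes included Cdkn1c and its neighbours on distal chromosome 7, among them Phlda2, a brake on placental growth, from 8.36 and 6.94 FPKM to 24.6 and 29.4 FPKM (log2 fold change 1.81 ± 0.15, adjusted p = 0.00225), and H19, a noncoding RNA, from 68.3 and 70.02 FPKM to 259 and 262 FPKM (log2 fold change 1.91 ± 0.10, adjusted p = 0.00118). Slc22a3, a cation transporter imprinted in placenta, rose from 0.242 and 0.212 FPKM to 1.86 and 2.23 FPKM (log2 fold change 2.71 ± 0.18, adjusted p = 0.00154). Igf2, the growth factor beside H19, fell from 7.53 and 8.66 FPKM to 3.74 and 4.13 FPKM (log2 fold change -1.02), as did Peg3 (log2 fold change -1.06), Mest (log2 fold change -0.93) and Nnat (log2 fold change -1.86). Without heterozygous library 2 there were 8 lower genes.

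Of 9 genes known for imprinting by maternal H3K27me3 4 were higher and 4 lower. Sfmbt2, a Polycomb-related gene needed in trophoblast, was at 33.1 and 34.8 FPKM in the heterozygous libraries and 61.9 and 65.8 FPKM in the null libraries (log2 fold change 0.91 ± 0.09, adjusted p = 0.00368). Slc38a4, an amino acid transporter, was at 51.02 and 53.2 FPKM in the heterozygous libraries and 92.8 and 100 FPKM in the null libraries (log2 fold change 0.89 ± 0.10, adjusted p = 0.00432). Jade1 and Gab1 were lower (log2 fold change -0.57, a call lost without heterozygous library 1 or 2) and (log2 fold change -0.48, a call lost without heterozygous library 1 or 2 or null library 1). Without heterozygous library 1 or 2 the list had 2 higher genes in each case and 0 and 1 lower, and it had 2 lower genes without null library 1. Total levels do not separate the alleles.

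Of 29 genes of cholesterol synthesis and its SREBP regulators 14 were higher and 2 lower, and 5 and 8 were higher without heterozygous library 1 or 2. Dhcr7, the last enzyme of a branch of the pathway, rose from 3.88 and 3.98 FPKM to 9.44 and 10.1 FPKM (log2 fold change 1.29 ± 0.10, adjusted p = 0.00197), and Insig1, which holds SREBP back in the endoplasmic reticulum, from 13.6 and 13.8 FPKM to 23.8 and 27.1 FPKM (log2 fold change 0.88 ± 0.10, adjusted p = 0.00477). Of 26 glycolysis genes 11 were higher, such as Hk1 from 2.54 and 2.803 FPKM to 8.41 and 10.2 FPKM (log2 fold change 1.76 ± 0.14, adjusted p = 0.00211), and 4 lower, such as Pdk1, a kinase that holds back pyruvate oxidation, from 7.38 and 7.64 FPKM to 2.96 and 2.88 FPKM (log2 fold change -1.33 ± 0.10, adjusted p = 0.00192). The lower glycolysis genes numbered 2 and 1 without heterozygous library 1 or 2, 2 without null library 1 and 7 after median-of-ratios scaling.

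In the methionine cycle, which makes the methyl donor S-adenosylmethionine, 8 of 32 genes of one-carbon metabolism were lower and 6 higher. The lower genes numbered 4 without either heterozygous library, 13 without null library 2 and 17 after median-of-ratios scaling, and the higher genes 3 without heterozygous library 1 or null library 2. Mat2a, the synthetase of that donor, was at 45.1 and 49.2 FPKM in the heterozygous libraries and 25.8 and 30.1 FPKM in the null libraries (log2 fold change -0.76 ± 0.12, adjusted p = 0.00989). Ahcy, which clears the product of methyl transfer, fell from 22.7 and 24.2 FPKM to 11.3 and 14.8 FPKM (log2 fold change -0.85). Bhmt, a betaine-dependent methyltransferase of liver, rose from 0.202 and 0.241 FPKM to 1.26 and 1.42 FPKM (log2 fold change 2.16). Of 26 genes of the ATF4 stress response 7 were lower, with Atf4 itself at 101 and 105 FPKM in the heterozygous libraries and 54.2 and 52.4 FPKM in the null libraries (log2 fold change -0.94 ± 0.09, adjusted p = 0.00345), and 3 were higher, with Atf3 at 1.81 and 1.73 FPKM in the heterozygous libraries and 4.396 and 6.07 FPKM in the null libraries (log2 fold change 1.49 ± 0.18, adjusted p = 0.00536). The lower genes of this list numbered 4 without either heterozygous library and 13 after median-of-ratios scaling, and 5 genes were higher without null library 1. The one-carbon and ATF4 counts were not tested against the shares given above.

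Large gene families were counted beside these lists. Over all tested genes 24.2% were higher and 12.1% lower, and the family counts were not tested against these shares. Of 357 zinc finger genes named Zfp, many of them repressors with a KRAB domain, 112 were lower and 26 higher, with a median of -0.28. After median-of-ratios scaling 166 were lower, and without heterozygous library 1 or 2 the counts were 59 and 53, with 17 and 14 higher. Of 288 solute carriers 126 were higher and 27 lower, and the lower ones numbered 14 without either heterozygous library and 53 after scaling. Of the 126, 23 had both heterozygous values under 0.1 FPKM, so they were tested only through their null values and could not be lower. Of 79 cytosolic ribosomal protein genes 4 were higher and 3 lower, and of 86 nuclear genes of the respiratory chain 4 were higher and 1 was lower. Both counts depended on single libraries. Without null library 1, 16 ribosomal and 36 of 85 respiratory genes were higher, and without null library 2, 10 ribosomal genes were lower. After median-of-ratios scaling 17 ribosomal genes were lower and 9 respiratory genes higher.

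Several microRNA hairpins expressed in ESCs were among the largest decreases, and the mature sequences of those that share a seed are shown with the seed, bases 2 to 8, in capitals. They are RefSeq sequences, 5′ to 3′.
miR-302b-3p: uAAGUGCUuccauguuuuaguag
miR-302d-3p: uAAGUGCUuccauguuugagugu
miR-291a-3p: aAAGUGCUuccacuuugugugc
miR-294-3p: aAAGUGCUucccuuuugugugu
miR-295-3p: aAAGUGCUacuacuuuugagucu
miR-367-3p: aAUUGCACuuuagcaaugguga
miR-363-3p: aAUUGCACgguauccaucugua
miR-92a-3p: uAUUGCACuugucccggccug
The first 5 share the seed AAGUGCU and the last 3 share AUUGCAC. The values are FPKM over the hairpin locus in total RNA, not levels of the mature molecules, and clusters were completed after the values of their leading members were seen.

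All 5 hairpins of the Mir302 cluster, in an intron of Larp7 on chromosome 3, were lower, with log2 fold changes of -3.72 to -1.84. Mir302a was at 8.29 and 8.41 FPKM in the heterozygous libraries and 0.446 and 0.804 FPKM in the null libraries (log2 fold change -3.59 ± 0.26, adjusted p = 0.00188). Mir302d was at 6.24 and 6.83 FPKM in the heterozygous libraries and 1.17 and 0.307 FPKM in the null libraries (log2 fold change -3.21 ± 0.54, adjusted p = 0.0121), and Mir367 at 4.04 and 5.005 FPKM in the heterozygous libraries and 0.308 and 0.197 FPKM in the null libraries (log2 fold change -3.72 ± 0.22, adjusted p = 0.00136). All 6 hairpins of the Mir106a cluster on the X chromosome were lower as well, with log2 fold changes of -3.89 to -1.90. Mir18b of that cluster was at 9.22 and 9.22 FPKM in the heterozygous libraries and 1.67 and 1.54 FPKM in the null libraries (log2 fold change -2.45 ± 0.11, adjusted p = 0.000956), and Mir92-2, which was at 1.39 and 1.39 FPKM in the heterozygous libraries, was listed at 0 in both null libraries. The call of Mir19b-2 was lost without null library 1, and that of Mir106a without either heterozygous library. Hairpins are short, so low FPKM values in both clusters stand for few fragments. Mir106a was at 0.388 and 0.303 FPKM in the heterozygous libraries and 0 in both null libraries. Mir20b was at 0.946 and 0.525 FPKM in the heterozygous libraries and 0.0962 and 0.139 FPKM in the null libraries.

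The Mir290 cluster on chromosome 7, which encodes the miRNAs with the AAGUGCU seed that are most abundant in ESCs, had 0 of 9 hairpins called in either direction, with log2 fold changes of -0.49 to 0.12. Mir294, for example, was at 9.64 and 9.1 FPKM in the heterozygous libraries and 6.08 and 7.83 FPKM in the null libraries (adjusted p = 0.0787). In the Mir17 cluster 1 of 6 hairpins, Mir20a, was called lower. The hairpins with a shared seed therefore had different values by locus. Lin28a, an RNA-binding protein known to block let-7 maturation, was at 61.6 and 66 FPKM in the heterozygous libraries and 20.1 and 22.3 FPKM in the null libraries (log2 fold change -1.59 ± 0.10, adjusted p = 0.00153), and was added after its value was seen.

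The largest single increases, by a rule on the fold change, were led by Tex13b, an X-linked testis gene (chrX:140808307-140813433), at 0.0991 and 0.188 FPKM in the heterozygous libraries and 9.03 and 9.68 FPKM in the null libraries (log2 fold change 5.3 ± 0.22, adjusted p = 0.000956). Dmkn, an epidermal secreted protein (chr7:30763756-30781063), was at 0.242 and 0.261 FPKM in the heterozygous libraries and 10.5 and 14.6 FPKM in the null libraries (log2 fold change 5.15 ± 0.19, adjusted p = 0.000956). Slc13a5, a citrate transporter (chr11:72241989-72267222), was at 0.1805 and 0.168 FPKM in the heterozygous libraries and 7.53 and 8.82 FPKM in the null libraries (log2 fold change 4.91 ± 0.15, adjusted p = 0.000956). The rest of the 12 were Pramel3, Asz1, Tuba3b, Magea5 and Magea8, given above, the phosphate transporter Slc34a2, the kidney injury receptor Havcr1, the peptidase Enpep and the hairpin Mir147.

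The largest decreases, besides 4 hairpins and Neurod1, began with Serpina3m, a serine protease inhibitor (chr12:104338486-104394257), at 9.26 and 10.1 FPKM in the heterozygous libraries and 0.606 and 0.538 FPKM in the null libraries (log2 fold change -3.86 ± 0.13, adjusted p = 0.000956). Enox1, an electron transfer protein of the cell surface (chr14:77156763-77721760), was at 8.65 and 9.56 FPKM in the heterozygous libraries and 0.534 and 0.665 FPKM in the null libraries (log2 fold change -3.72 ± 0.15, adjusted p = 0.000956). Has2, a hyaluronan synthase, Clca4a, Kctd12b and Enpp3 were also among the 12, with log2 fold changes of -3.25 to -3.12, and the calls of Has2 and Clca4a were lost without either heterozygous library.

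Across gene classes, protein-coding genes were higher in 29.2% and lower in 13.4% of 15832 tested. Unprocessed pseudogenes, which arise by duplication, were higher in 45.0% and lower in 9.91% of 444. Processed pseudogenes were higher in 11.8% and lower in 12.1% of 3330, but held 47 of the 151 genes lower by a log2 of at least 2, the most abundant of which was Gapdh-ps15 on the Y chromosome, from 232 and 243 FPKM to 32.03 and 43.2 FPKM (log2 fold change -2.67). Pseudogenes share fragments with their parent genes, which makes their values uncertain. Small nucleolar RNAs were lower in 17.8% and higher in 8.36% of 574.

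**Figure D5:**
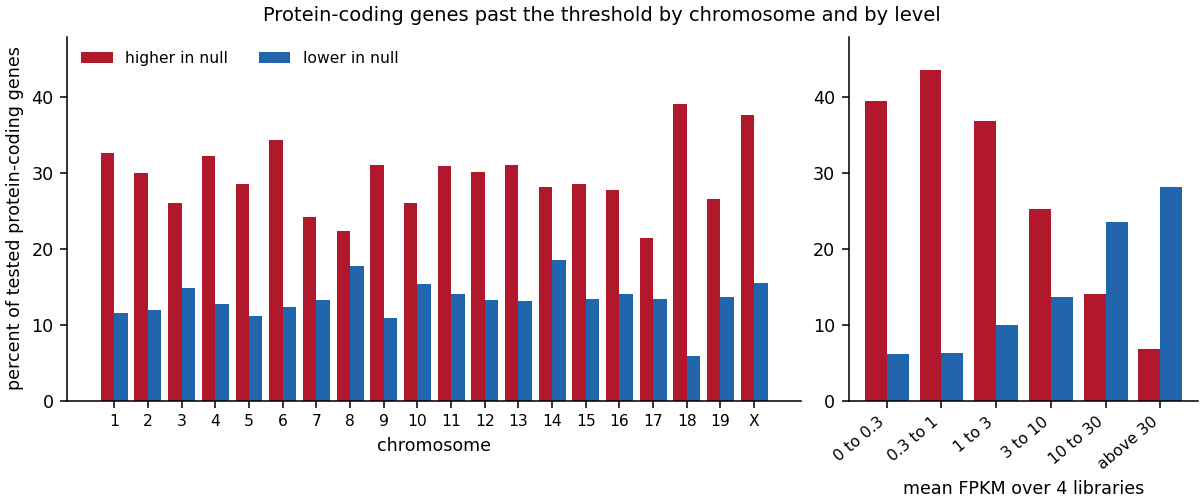
Bars give the percent of tested protein-coding genes called higher and lower in Eed null ESCs, by chromosome on the left and by mean FPKM over the 4 libraries on the right. Higher calls reach 39.1% on chromosome 18 and 37.7% on the X, and they drop from 43.6% at 0.3 to 1 FPKM to 6.76% above 30 FPKM while lower calls go from 6.27% to 28.2%.

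The share of calls followed the level of expression. Among protein-coding genes under 0.3 FPKM on average over the 4 libraries, 39.5% were higher and 6.18% lower. Between 0.3 and 1 FPKM 43.6% were higher, and above 30 FPKM 6.76% were higher and 28.2% lower. The filter on low FPKM bears on these shares, since a gene under 0.1 FPKM in both libraries of 1 genotype was tested only through the other genotype and had to differ, which touches weakly expressed genes alone. Its part was not tested.

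By chromosome, protein-coding genes on the X were higher in 37.7% of 626, and 14.7% were higher by a log2 of at least 2. On autosomes 28.8% were higher and 4.39% were higher by that much, with single autosomes between 2.44% and 7.99%. With the Rhox, Mage, Xlr and Prame-like genes set aside, 33.8% of 583 X-linked genes were higher, and 11.8% by a log2 of at least 2. Among autosomes chromosome 18 had the largest share of higher genes, 39.1%, and the smallest of lower ones, 5.84%. Among coding genes of at least 3 FPKM on average, its median log2 fold change was 0.19, against -0.15 on chromosome 8 and -0.12 to 0.05 on the other 17 autosomes. The copy number of chromosomes was not measured, so dosage and regulation cannot be told apart here.

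A few genes fell or rose in ways that stood apart from their class, and were singled out after their values were seen. Rps2, a ribosomal protein gene in a family with 72 of 79 members not past the threshold, was at 63.2 and 73.1 FPKM in the heterozygous libraries and 16.6 and 16.3 FPKM in the null libraries (log2 fold change -2.04 ± 0.11, adjusted p = 0.00118). Atp5e, a subunit of ATP synthase, was at 6.596 and 7.3 FPKM in the heterozygous libraries and 0.754 and 0.887 FPKM in the null libraries (log2 fold change -2.94 ± 0.14, adjusted p = 0.00102). Usp9y, a Y-linked ubiquitin protease, was at 0.263 and 0.205 FPKM in the heterozygous libraries and 2.86 and 2.65 FPKM in the null libraries (log2 fold change 3.1 ± 0.17, adjusted p = 0.00118), and Uba1y, a Y-linked ubiquitin-activating enzyme, rose from 7.03 and 7.06 FPKM to 13.8 and 15.9 FPKM (log2 fold change 1.06). Kdm5d (log2 fold change -0.89) and Uty on the same chromosome were lower, so the Y-linked genes did not share a direction.

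The series also holds naive ESCs sorted by mitochondrial membrane potential, with 2 libraries of low-potential and 2 of high-potential cells, and the effect of Eed was set against the low minus high effect in 1 limma model of the 8 libraries. The 2 comparisons share no libraries and lie in tables that were normalized separately, so only differences within a table were used. The study normalized its comparison of low and high potential to the ERCC spike-ins, a step not taken here. Of 27714 genes tested, the Eed effect exceeded the low-potential effect in 4997 (18.0%) and was below it in 3573 (12.9%), or 30.9% in either direction. Without null library 2, 3042 genes were above 0, and 2219, 1935 and 2172 were below 0 without heterozygous library 1, heterozygous library 2 or low-potential library 1. After median-of-ratios scaling of the libraries 5993 genes were above 0 and 5897 below.

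Of the Hox genes 33 of 35 had a difference above 0, but 24 of the 35 had entered the Eed test only through their null values, which fixed the direction of the Eed effect for these members. Hoxc10, for example, had a low minus high log2 fold change of -0.89 ± 0.26, against 3.38 ± 0.25 in the Eed comparison (difference 4.27 ± 0.37, adjusted p = 0.000327). Of the trophectoderm regulators 21 of 29 were above 0 and 3 below. For Cdx2 the low minus high log2 fold change was -0.33 ± 0.20, and the difference was 3.62 ± 0.28, adjusted p = 0.000238. Germline genes (24 of 35) and Mage and Xlr genes (21 of 29) were above 0 too, with Tuba3a at -1.65 ± 0.14 in low-potential cells (difference 4.93 ± 0.20, adjusted p = 5.19e-05). Of the Mage and Xlr genes, 10 had entered the Eed test only through their null values, which fixed the direction of their Eed effect.

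Most 2-cell genes were higher in both comparisons. In low-potential cells 32 of 37 were higher and 1 lower, with a median of 4.59 against 1.66 in the Eed comparison, and 28 of 37 had a difference below 0 and 4 above 0. Zscan4f had a low minus high log2 fold change of 6.71 ± 0.09, against 1.34 ± 0.09 (difference -5.37 ± 0.13, adjusted p = 1.66e-05). The p53 targets had opposite medians, 0.91 in low-potential cells and -0.38 in Eed null cells, and 20 of 28 differed, all 20 below 0. Mdm2 had a low minus high log2 fold change of 1.15 ± 0.11, against -0.96 ± 0.09 (difference -2.11 ± 0.16, adjusted p = 0.000197). Of the ERK genes 11 of 20 were below 0 and 1 above.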

How the data were processed

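Total RNA of 24 libraries, 2 in each of 12 groups, was depleted of ribosomal RNA, given ERCC spike-ins and sequenced, and 4 of them are described here. Per the submitters' processing notes and the study's methods, the authors trimmed reads with Trim Galore and cutadapt, mapped them with TopHat2 2.1.1 to mm10 (GRCm38), removed duplicates, counted fragments with featureCounts without strand, splitting those with several matches, and deposited FPKM made with edgeR. Reads of a gene and of its antisense partner therefore cannot be told apart, and close copies share fractions of fragments. The deposited FPKM of the Eed genotypes hold no ERCC rows, while those of the membrane potential comparison hold 92, which were not used here. FPKM are not counts, so the test was limma 3.58.1 with an intensity trend (R 4.3.3) on log2(FPKM + 0.1), which understates the change of low genes. It covered the 27015 of 55385 Ensembl genes with at least 0.1 FPKM in at least 2 of the 4 libraries, with Benjamini-Hochberg adjustment. Samples were grouped by their titles. The scripts were tested on simulated data. Depth was estimated from the steps between low FPKM and gives no interval.

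The members, the 33 gene lists and 36 families were chosen with earlier results of these data known. Named genes were the key members of each list, the 12 largest increases and decreases past the threshold with a mean of at least 1 FPKM in the higher group and no overlap between groups, leaving out unnamed gene models and pseudogenes, and up to 4 further called members of each list with the largest change, and list members with a mean of at least 10 FPKM in either group. Alternatives were other pseudocounts, filters, scaling, a replicate block, no intensity trend and each library left out. Promoters and miRNAs came from RefSeq tables of GRCm38.p6, with a promoter for 76.2% of tested protein-coding genes. A few genes that these rules name are not reported here.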

Additional observations from a re-analysis of the deposited data

Results flagged for a closer look

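The effects of Eed loss and of low membrane potential were compared by a limma test of the difference between the 2 log2 fold changes. It was above 0 in 4997 genes (18.0%) and below 0 in 3573 (12.9%). Members above 0 numbered 33 of 35 Hox, 24 of 35 germline and 21 of 29 Mage and Xlr genes (2 below). They also numbered 21 of 29 trophectoderm regulators (3 below), 17 of 29 cholesterol synthesis genes and 14 of 34 G2 and mitosis genes. In the G2 and mitosis list 22 genes were lower in low-potential cells, with a median of -0.59. The median of that list was -0.16 in the Eed comparison, with 2 higher and 6 lower. Of the Hox genes 24, and of the Mage and Xlr genes 10, had both heterozygous values under 0.1 FPKM. These were tested in the Eed comparison only through their null values. The members with a difference below 0 numbered 28 of 37 for 2-cell genes (4 more were above 0) and 20 of 28 for p53 targets. They numbered 128 of 357 for zinc finger genes named Zfp (14 above 0) and 11 of 20 for ERK genes (1 above 0). Genotype, cell line, sorting and culture cannot be told apart in this difference. By the study's methods naive ESCs were routinely grown on a Geltrex coating in N2B27 medium, and the Eed lines were derived on feeders with serum.

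A separate row of the deposited table holds the retroelement MERVL, which lies outside the Ensembl genes tested above and is transcribed together with 2-cell genes. It was at 0.0584 and 0.0560 FPKM in the heterozygous libraries and at 0.423 and 0.405 FPKM in the null libraries, higher in both null libraries than in either heterozygous library. Groups of 2 libraries were too small for a test of single outlying libraries.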

How the results depend on the processing

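The counts kept within 1.5 times their value under most alternatives. Higher calls (6534) became 3974 when 1 FPKM was required in 2 libraries, and ranged from 3783 to 5612 with 1 library left out. Lower calls (3266) became 6076 after median-of-ratios scaling and ranged from 1235 to 3775 with 1 library left out. Of the lists and families with at least 4 tested members, 25 had at least 50% of their tested members higher, 16 without a filter and 17 to 23 with 1 library left out, and 3 had at least 50% lower, which became 11 after scaling, 6 with the replicate block and 1 to 4 with 1 library left out. Of 479 named genes past the threshold 367 to 406 stayed past it with 1 library left out and 408 to 477 under the other alternatives. Differences from the low-potential effect numbered 3042 to 4444 above 0 and 1935 to 3707 below 0 with 1 library left out, and 5897 below 0 after scaling. Rps21, with a log2 fold change of 0.05 from all 4 libraries, had -0.53 to 0.64 with 1 library left out, the cause of which was not tested.

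The replicate block gave 7298 higher and 4146 lower calls. Across genes, the deviations of same-numbered libraries from their genotype means had a correlation of 0.0723. With 2 libraries a genotype this is 1 comparison, so it does not settle whether the numbers paired the libraries. A fit left with 1 library in a group took its spread from the other group. The alternative with an ERCC factor and the wider promoter window were not run, since the table of the Eed genotypes held no ERCC rows and no genome was used here. A depth of 40500000 to 64200000 fragments left many genes under 0.1 FPKM untested, and 2 libraries a genotype limit the precision of every difference.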
